A study of Mus musculus with 8 samples.

Results

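The genes described here are AF067061, Gm20767, Zfp352 and Zscan4c, 4 genes of the mouse 2-cell embryo, out of 18194 genes on Affymetrix GeneChip mouse genome arrays. They were chosen by name. AF067061 and Gm20767 were chosen for the highest responses to doxycycline (Dox) in the pairs of arrays with forced Nanog and forced Esrrb described below. Those responses were ranked among genes with a probe set of their own. All probe sets of the 4 members were followed. AF067061 and Gm20767 have 1 probe set each and Zfp352 has 2. Zscan4c has no probe set of its own: the only one that lists it is annotated to 6 genes of the Zscan4 family, and is called the shared Zscan4 probe set. That makes 5 of 45101 probe sets, over 8 arrays.

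RNA came from a male embryonic stem cell (ESC) line of 129sv background, named NS tet-off ESC. In these cells both endogenous copies of the nucleostemin (NS) gene, Gnl3, are disrupted, and an NS cDNA in the ROSA26 locus is shut off by Dox, so the controls carry the same disruption and transgene. There are 4 backgrounds: cells bearing an empty vector, the same cells in the 2i condition (inhibitors of MEK and GSK3b), Nanog-overexpressing cells and Esrrb-overexpressing cells. The cells were grown with LIF and serum, and the paper names the 2i condition 2i plus LIF. The Nanog and Esrrb vectors were stably integrated under puromycin selection. Each background has 1 Dox-untreated array and 1 array of cells treated with Dox for 6 days, and the arrays of a background are called its pair. There is 1 array per condition, so no value has a replicate, and tests take the backgrounds as replicates of the Dox response.

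A few cells in an ESC culture pass at any time through a state that resembles the 2-cell embryo, in which the embryo's own genome is first transcribed. Cells in that state express Zscan4, which encodes zinc finger proteins with a SCAN domain and is known for its role in telomere maintenance, together with Zfp352, a zinc finger gene, the Tcstv genes, and endogenous MERVL retroviruses. The homeodomain factor Dux drives much of this program. Many of these genes lie in multi-copy families. In RefSeq (GRCm38.p6), AF067061 and Gm20767 lie on chromosome 13 between Tcstv1 and Tcstv3, in an interval that holds 26 annotated entries, 8 of them protein coding. The Zscan4 family has 9 entries on chromosome 7, of which 4 are protein coding and 5 are pseudogenes. Zfp352 lies on chromosome 4. A signal of AF067061, whose probe set carries the _x_at suffix for probes that may bind several transcripts, or of the shared Zscan4 probe set cannot be assigned to 1 copy.

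The promoters are shown because the members, which moved together on these arrays, lie on 3 chromosomes. The RefSeq table holds promoters of 3 of the 4 genes, each of 250 bases before and 50 after the start, on the plus strand of GRCm38.p6: AF067061 at chr13:120262845-120263144, Zfp352 at chr4:90218570-90218869 and Zscan4c at chr7:11005495-11005794. Capitals mark TGATTCAA, the first letters of the motif bound by Dux, TATAA, the core of the TATA box, and TAATCC, a site of bicoid-type homeodomain factors such as Otx and Obox proteins, on either strand. The motifs were chosen with these sequences in view, and the first TATAA of AF067061 overlaps with a TAATCC.
AF067061: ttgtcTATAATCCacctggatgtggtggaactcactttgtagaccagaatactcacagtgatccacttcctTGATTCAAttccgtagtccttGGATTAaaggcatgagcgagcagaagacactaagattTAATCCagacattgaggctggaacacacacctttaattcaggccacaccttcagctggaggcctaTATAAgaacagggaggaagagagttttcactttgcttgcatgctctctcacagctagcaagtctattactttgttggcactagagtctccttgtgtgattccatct
Zfp352: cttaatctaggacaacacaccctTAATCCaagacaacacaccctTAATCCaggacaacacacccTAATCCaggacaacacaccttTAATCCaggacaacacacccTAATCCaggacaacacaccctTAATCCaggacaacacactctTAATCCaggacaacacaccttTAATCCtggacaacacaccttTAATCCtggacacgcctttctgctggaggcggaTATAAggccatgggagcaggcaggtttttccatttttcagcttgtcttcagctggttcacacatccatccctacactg
Zscan4c: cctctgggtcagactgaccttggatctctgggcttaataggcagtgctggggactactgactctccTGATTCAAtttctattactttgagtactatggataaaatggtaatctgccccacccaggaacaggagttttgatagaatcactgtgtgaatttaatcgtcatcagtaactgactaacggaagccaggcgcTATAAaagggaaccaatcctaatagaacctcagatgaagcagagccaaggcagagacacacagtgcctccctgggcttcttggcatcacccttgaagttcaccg

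TGATTCAA occurred once in the promoter of AF067061, at position -179 from the start, and once in that of Zscan4c, at -184. It was in 191 of 32851 promoters of this length (0.581%), counted on both strands as for all motifs here. The promoter of Zfp352 did not hold these letters. That promoter is a tandem repeat with 9 copies of TAATCC, more than any other promoter of the table held: no other had 9 or more, and 2320 promoters (7.06%) had at least 1. AF067061 held 3 copies of TAATCC. The letters TATAA were in all 3 printed promoters and in 24.9% of all promoters. AAGGTCA, part of the site bound by Esrrb, lay on the minus strand of the Zscan4c promoter and was in 4.72% of all promoters. The Zscan4c promoter was identical to those of Zscan4f, Zscan4d and Zscan4b at 99.3%, 97.2% and 95.3% of aligned bases, and AF067061 to its neighbour Gm21761 at 88.3%. These matches describe letters only, and no binding was measured.

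Before the members, Gnl3 was checked. Its log2 signal lay between 13.47 and 13.68 on the Dox-untreated arrays and was 7.79 (empty vector), 8.01 (2i), 9.13 (Nanog) and 8.61 (Esrrb) after Dox. The stem cell marker Pou5f1, which encodes Oct3/4, lay between 12.71 and 13.28 on all arrays. The mean log2 signal of 12 ESC markers, Pou5f1 among them, was 12.42 without and 11.64 with Dox in empty vector cells, and 12.15, 12.42 and 12.52 on the 2i, Nanog and Esrrb arrays with Dox. With empty vector 3 of the 12 were over 2-fold lower, Klf2, Klf4 and Tcl1 at log2 ratios of -2.16, -1.23 and -3.27, and 2 were with 2i, 0 with Nanog and 0 with Esrrb. The part of these markers in the members' values was not tested. The Nanog probe set read 12.35 and 12.23 on the Nanog arrays without and with Dox, against 12.81 and 12.49 with empty vector. The brightest Esrrb probe set read 11.27 and 11.38 on the Esrrb arrays, against 11.31 and 10.38 with empty vector. Without Dox these probe sets did not show the forced expression, which is taken from the labels. The array labelled 2i Dox-untreated also stands apart from its label. Dusp6 and Spry4, feedback genes that MEK signalling induces, had log2 signals of 10.95 and 9.92 on the array labelled 2i Dox-untreated, against 10.97 and 10.17 on the empty vector Dox-untreated array, whereas they were at 7.64 and 4.07 on the 2i Dox-treated array. These genes gave no sign of MEK inhibition on the array labelled 2i Dox-untreated, which is called 2i below by its label alone. Whether its cells were in 2i is not known. In the ratio of that pair, 2i and Dox therefore cannot be told apart, and its values are also given against the empty vector Dox-untreated array. In such bulk RNA, more cells in a 2-cell-like state and more of these RNAs per cell cannot be told apart.

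AF067061 was higher after Dox in every background. Its log2 signal was 7.18 in empty vector cells, 9.45 in 2i, 6.78 in Nanog and 7.80 in Esrrb cells without Dox. After Dox it was 11.55, 11.57, 9.75 and 12.05 in the same order. The lowest Dox-treated value, of Nanog cells, lay above the highest Dox-untreated value, of 2i cells, so the arrays with and without Dox did not overlap. The share of all probe sets that separate in this way is not given here, and the Nanog and Esrrb pairs were used to choose AF067061. The log2 ratio of treated over untreated was 4.36 for empty vector (20.6-fold), 2.12 for 2i (4.35-fold), 2.97 for Nanog (7.86-fold) and 4.25 for Esrrb (19.0-fold).

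Gm20767, its neighbour on chromosome 13, followed the same course. Its log2 signal without Dox was 5.22 in empty vector, 7.70 in 2i, 4.97 in Nanog and 6.00 in Esrrb cells, and with Dox it was 9.71, 9.75, 7.89 and 10.34. Here too the arrays with and without Dox did not overlap, with the same 2 limits as for AF067061. The log2 ratios were 4.49, 2.05, 2.92 and 4.34, and differed from those of AF067061 by at most 0.12. With r = 0.9995 between them over the 8 arrays, whether the 2 probe sets read separate RNAs was not tested. Their ranks may therefore not be independent. On the empty vector and Nanog arrays without Dox the signal lay below the median of all values, 5.33, where log2 ratios are compressed, so the folds there may be too small.

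The ranks of both genes among 18194 genes differed between pairs. AF067061 and Gm20767 ranked 1 and 2 in the Nanog pair, and 2 and 1 with Esrrb, which is how they were chosen. The genes just behind them were Usp17la at 2.69 and Ms4a10 at 2.65 with Nanog, and BC080696 at 3.77 and Usp17la at 3.57 with Esrrb. In the empty vector pair they ranked 13 and 11, behind Sbsn, an epidermal gene, with a log2 ratio of 5.49. In the 2i pair they ranked 166 and 184, behind Krtdap, another epidermal gene, at 5.85. The log2 ratio was thus larger in the empty vector pair, where each ranked lower, than in the Nanog pair. Among all 45101 probe sets, with those of several genes or none, AF067061 and Gm20767 ranked 3 and 4 with Nanog, and 6 and 4 with Esrrb.

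The response of Zfp352 was smallest with Nanog. On the brighter of its 2 probe sets the log2 signal without Dox was 4.82 in empty vector, 6.11 in 2i, 5.45 in Nanog and 5.26 in Esrrb cells, and with Dox it was 7.82, 7.41, 5.83 and 7.84. The Nanog Dox-treated value lay under the 2i Dox-untreated one, so the arrays with and without Dox overlapped. The untreated signals of empty vector and Esrrb cells lay below the median of 5.33, so the folds there may be too small. It was thus 7.99-fold higher with empty vector, 2.47-fold with 2i, 1.31-fold with Nanog and 5.97-fold with Esrrb, or 1.30, 0.39 and 2.58 on the log2 scale for the last 3. The other one, which has the suffix _x_at, read 4.64, 5.93, 4.56 and 5.21 without Dox, below that median in all but 2i cells, and 7.65, 7.57, 5.85 and 7.90 with Dox. Its log2 ratios were 3.01, 1.64, 1.29 and 2.69, and differed most from those of the brighter probe set with Nanog, by 0.91. The probe sets thus disagree on whether Zfp352 was over 2-fold higher with Nanog.

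The shared Zscan4 probe set had the highest response of the 5. Its log2 signal was 6.51 in empty vector, 9.22 in 2i, 6.93 in Nanog and 7.69 in Esrrb cells without Dox, and 11.60, 11.69, 10.24 and 12.60 with Dox. The arrays with and without Dox did not overlap, and the share of all probe sets that separate in this way is not given here. The log2 ratio was 5.09 for empty vector (34.1-fold), 2.47 for 2i (5.54-fold), 3.31 for Nanog (9.91-fold) and 4.91 for Esrrb (30.1-fold). Among all 45101 probe sets it ranked 1 with Nanog, 1 with Esrrb, 6 in the empty vector pair and 151 with 2i.

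**Figure D1:**
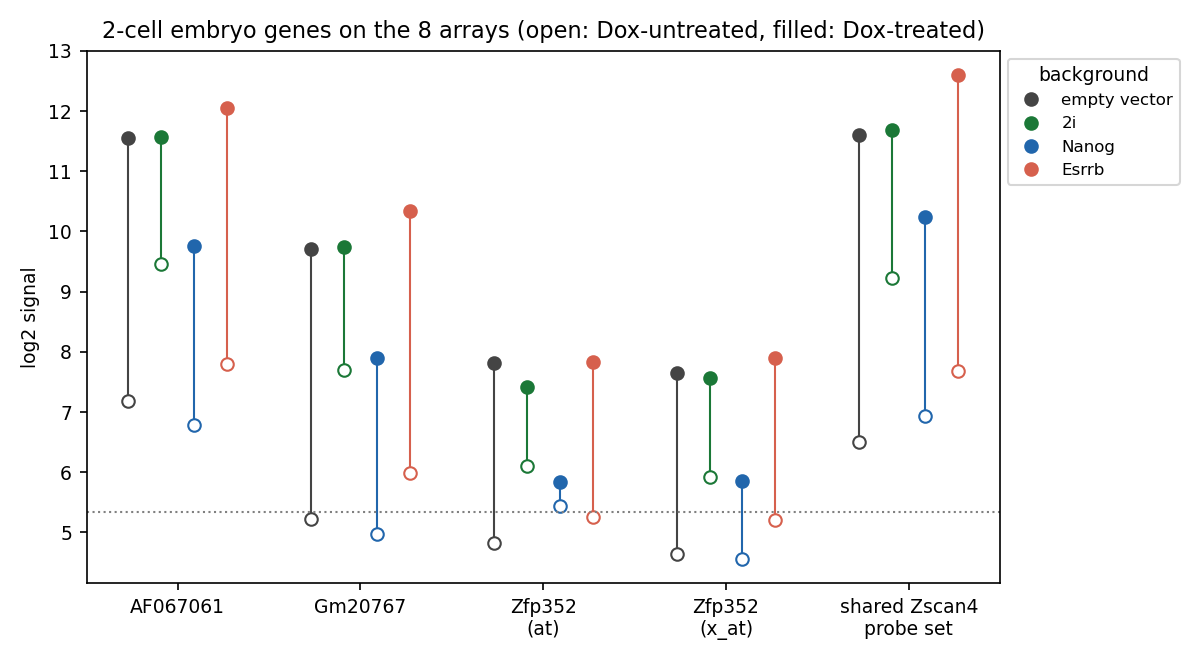
Log2 signal (vertical axis) of the 5 probe sets (horizontal axis), with an open point for the Dox-untreated and a filled point for the Dox-treated array of each background, joined by a line, and 1 array per point; (at) marks the brighter Zfp352 probe set and (x_at) the other, and the dotted line is the median of all values, 5.33. The array labelled 2i Dox-untreated stands above the other Dox-untreated arrays for each probe set, and the Nanog Dox-treated array below the other Dox-treated arrays.

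The Dox response was tested with limma in the empty vector and 2i pairs, which the choice of AF067061 and Gm20767 did not use, with Benjamini-Hochberg adjustment over all 45101 probe sets. The 2 pairs leave 1 residual degree of freedom. In the 2i pair, 2i and Dox cannot be told apart, and this limit holds for every fit that uses this pair. In this fit 940 probe sets were called higher at an adjusted p under 0.05 (2.08%). AF067061 was higher by 3.24 on the log2 scale (standard error 0.529, 95% interval 1.86 to 4.62, higher in 2 of 2 pairs, adjusted p = 0.0516). Gm20767 was higher by 3.27 (standard error 0.578, adjusted p = 0.0601). The shared Zscan4 probe set was higher by 3.78 (standard error 0.614, adjusted p = 0.0513). These 3 narrowly missed the threshold in limma. Of the Zfp352 probe sets, the _x_at one passed, at 2.32 (standard error 0.358, adjusted p = 0.0474), and the brighter one did not, at 2.15 (standard error 0.425, adjusted p = 0.0731). One of 5 member probe sets was therefore called.

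Over all 4 pairs, where limma called 1194 probe sets higher (2.65%) and 1518 lower (3.37%), the shared Zscan4 probe set was higher by 3.94 (standard error 0.435, 95% interval 2.90 to 4.99, higher in 4 of 4 pairs, adjusted p = 0.0145). This call was kept without the 2i pair (adjusted p = 0.0368) and lost without the Nanog (0.0523), the empty vector (0.0533) or the Esrrb pair (0.0587), which also lowered the number of called probe sets to between 3 and 168. Zfp352 was higher by 2.16 on its _x_at probe set (standard error 0.294, adjusted p = 0.0199), and this call was lost without any 1 of the 4 pairs (adjusted p between 0.0508 and 0.0741). On the brighter probe set the value was 1.82 (standard error 0.415, adjusted p = 0.0544). AF067061 and Gm20767 get no test here, because 2 of these pairs chose them. Zfp352 and the shared Zscan4 probe set varied with those genes over the 8 arrays (r between 0.9477 and 0.9916). The shared Zscan4 probe set itself ranked 1 with Nanog and 1 with Esrrb. Their adjusted p over the 4 pairs are therefore not independent of that choice.

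Whether the response with forced Nanog or Esrrb differed from that without was tested as an interaction, in which limma called 112 probe sets (0.248%). The shared Zscan4 probe set had a difference of 0.33 (standard error 0.866, 95% interval -1.75 to 2.41, adjusted p = 0.927). For Zfp352 it was -0.67 on the brighter probe set (95% interval -2.58 to 1.25, adjusted p = 0.801) and -0.33 on the _x_at one (adjusted p = 0.878). None of these passed, and the intervals allow a response several fold smaller or larger with Nanog or Esrrb. For the shared Zscan4 probe set the fit averages log2 ratios of 5.09 and 2.47 without, and 3.31 and 4.91 with, forced Nanog or Esrrb. Against the empty vector Dox-untreated array, given below, its 2i ratio lies above 4.91. The sign of its difference thus depends on the array labelled 2i Dox-untreated. The trophoblast markers, of which 9 of 15 passed 2-fold upward after Dox with empty vector and 7 with 2i, had 0 that did so with Nanog and 0 with Esrrb. Over all genes the shares over 2-fold higher were 5.36%, 4.81%, 1.13% and 1.06% in the 4 pairs, so that 0 of 15 with Nanog or Esrrb is near the share of all genes. Their mean log2 signal was 5.80 to 6.14 without Dox, 7.55 and 7.20 with Dox in empty vector and 2i cells, and 6.15 with Dox in both Nanog and Esrrb cells, and its part in the members' values was not tested.

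The untreated levels differed between arrays. Of the Dox-untreated arrays, the one labelled 2i, whose Dusp6 and Spry4 were close to those of the empty vector array, had the highest signal of each member. Against the empty vector Dox-untreated array, the log2 signal there was higher by 2.27 for AF067061, 2.48 for Gm20767, 1.28 and 1.29 for the Zfp352 probe sets and 2.72 for the shared Zscan4 probe set. That last difference was the largest of 45101 probe sets, and Gm20767 and AF067061 ranked 4 and 6. The arrays were otherwise alike, with r = 0.99495 over probe sets and 164 probe sets (0.364%) over 2-fold higher. These are single arrays, so the differences have no test. Against the empty vector Dox-untreated array, the 2i Dox-treated array gave log2 ratios of 4.39 for AF067061, 4.53 for Gm20767, 2.59 and 2.92 for Zfp352 and 5.18 for the shared Zscan4 probe set.

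**Figure D2:**
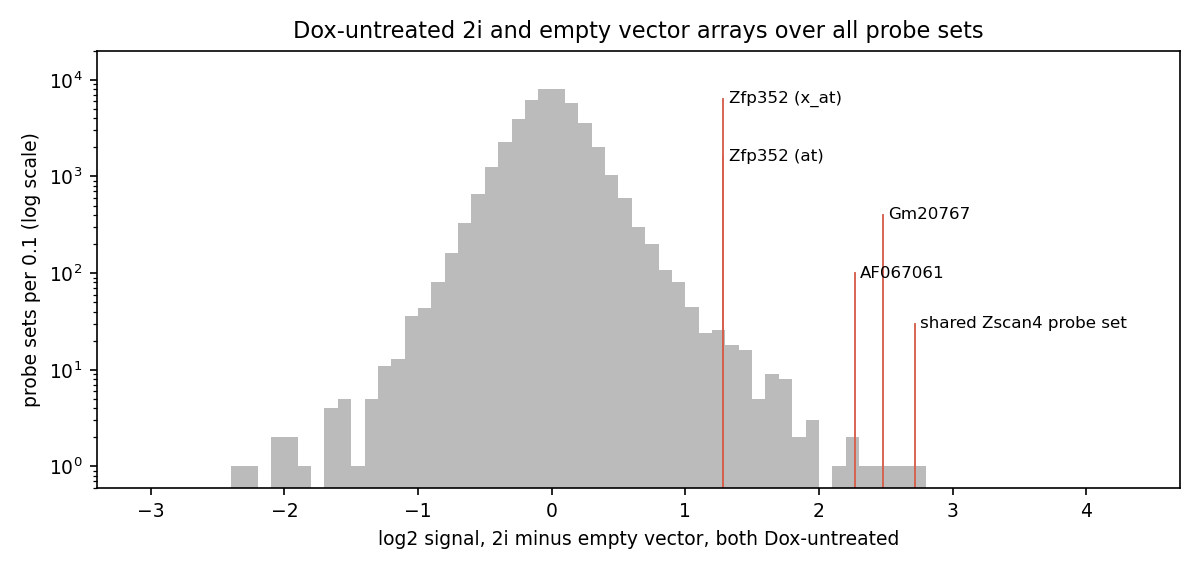
Number of probe sets (vertical axis, log scale) by the log2 signal of the array labelled 2i Dox-untreated minus the empty vector Dox-untreated array (horizontal axis, bins of 0.1), over 45101 probe sets; red lines mark the members. AF067061, Gm20767 and the shared Zscan4 probe set lie at 2.27, 2.48 and 2.72, at the right end of the distribution.

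In Esrrb cells without Dox the members were higher than in empty vector cells by 0.62 (AF067061), 0.77 (Gm20767), 0.44 and 0.56 (Zfp352) and 1.18 (shared Zscan4 probe set). On that Esrrb array the 14 endoderm markers had a mean log2 signal of 8.61, against 6.42 to 6.71 on the other Dox-untreated arrays and 7.70 on the Esrrb Dox-treated array, and their part in the members' values was not tested. In Nanog cells without Dox the differences were -0.41, -0.25, 0.62, -0.08 and 0.42, with no common direction. After Dox, empty vector and 2i cells differed by 0.03 for AF067061, 0.04 for Gm20767, -0.41 and -0.08 for Zfp352 and 0.09 for the shared Zscan4 probe set. The Nanog Dox-treated array was the lowest of the treated arrays for all 5 probe sets, between 1.36 and 1.99 below the empty vector array. Esrrb cells were highest of the treated arrays for all 5. Gnl3 had its highest Dox-treated signal, 9.13, on that Nanog array, and its part in these levels was not tested.

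The 5 probe sets varied together. Over the 8 arrays Pearson's r was between 0.9433 and 0.9995 for the 10 pairs of probe sets, the highest for AF067061 with Gm20767. The arrays are the same for all of them and differ in Dox, so these r describe the data and carry no p. In AF067061 the order of levels was Esrrb, 2i, empty vector and Nanog with Dox, then 2i, Esrrb, empty vector and Nanog without. The neighbours 2i and empty vector with Dox were only 0.03 apart, and with 1 array each no order of neighbours can be set against a spread between replicates.

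The genes most like AF067061 and Gm20767 over the 8 arrays, among 4166 genes outside the 2-cell list with a span over 1 on the log2 scale, were BC080696 (r = 0.979), Clpb (0.974), which encodes a mitochondrial disaggregase, D13Ertd608e (0.965), Anxa6 (0.964), a calcium-dependent membrane-binding protein, and Spesp1 (0.962), a sperm protein gene. BC080696, D13Ertd608e and Spesp1 had log2 ratios of 1.40, 1.34 and 1.27 with Nanog and 3.77, 2.59 and 2.86 with Esrrb. Clpb and Anxa6 moved less, with 0.97 and 0.64 in the Esrrb pair. Zfp352 was most like BC080696 (0.980), Pramel18 (0.974), Ccser1 (0.967), Spesp1 (0.966) and Cwc22 (0.958). The shared Zscan4 probe set was most like Clpb (0.985), BC080696 (0.973), Anxa6 (0.972), Cd320 (0.971) and Sirt7 (0.969). Across arrays, 65 genes had r over 0.9 with AF067061 and Gm20767.

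**Figure D3:**
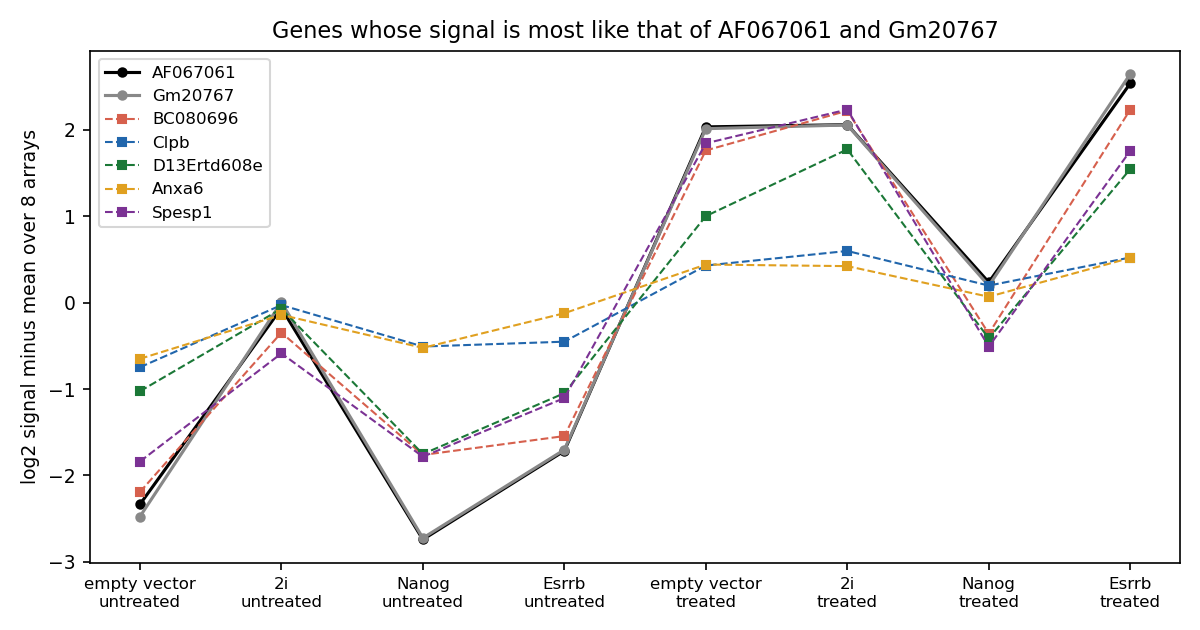
Log2 signal minus its mean over the 8 arrays (vertical axis) for AF067061, Gm20767 and the 5 genes with the highest Pearson correlation to them, by array (horizontal axis), with 1 array per point and lines only to guide the eye. BC080696, D13Ertd608e and Spesp1 follow both genes with smaller swings in the Nanog pair, and Clpb and Anxa6 span less than AF067061.

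Other genes of the 2-cell stage were counted from a list of 98 genes, of which 28 had a probe set of their own, 25 of them other than the members. After Dox 8 of 25 were over 2-fold higher with empty vector, 12 with 2i, 2 with Nanog and 7 with Esrrb, and none of the 25 was over 2-fold lower in any pair. Of all genes 5.36%, 4.81%, 1.13% and 1.06% passed 2-fold upward, and 3.85%, 3.1%, 1.17% and 0.967% downward. The 0 of 25 over 2-fold lower is thus near the share of all genes. Several of the 25, such as Tcstv3, Ubtfl1 and Duxf3, read below the median of all values, 5.33, on every Dox-untreated array. Such genes had little room to fall. The median log2 ratio of the 25 was 0.34, 0.83, 0.20 and 0.64, against -0.03, 0.03, -0.01 and 0.00 over all genes. Their counts in the Nanog pair thus rest on 2 genes, Usp17la and Arg2.

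limma called 8 of the 25 higher in the empty vector and 2i pairs and 0 lower, and 8 higher and 0 lower over the 4 pairs. Over all genes, by the same probe set rule, 3.18% were called higher in the first fit and 3.86% in the second. Called lower were 2.09% and 3.49%, so 0 of 25 lower is near the share of all genes. In the first fit 5 of 15 trophoblast and 4 of 14 endoderm markers were called higher too, against 0 of 12 ESC and 0 of 8 fibroblast markers. Over the 4 pairs 0 markers of these lists were called higher. Over 3 pairs 2 of the 25 were called without the 2i pair, 2 without the empty vector pair, 5 without the Nanog pair and 0 without the Esrrb pair, where 11 of the 25 had an unadjusted p under 0.05. In the same order, limma called 117, 83, 83 and 1 of all 45101 probe sets higher in these fits. Of the 8, none kept its limma call under every omission of 1 pair. Usp17la and Arg2 lost the call without the Esrrb pair (adjusted p = 0.057 and 0.0549), Sp110 kept it only without the Nanog pair (0.0493), and the other 5 lost it without any 1 pair (adjusted p between 0.0548 and 0.147). Usp17la, which encodes a deubiquitinase, read 5.18, 7.31, 5.20 and 6.19 without Dox, in the same order of backgrounds, and 9.89, 10.31, 7.89 and 9.76 with Dox. It rose by 3.49 over the 4 pairs (standard error 0.315, adjusted p = 0.01). Arg2, a mitochondrial arginase, rose by 2.89 (standard error 0.242, adjusted p = 0.01), with log2 ratios of 3.30, 2.95, 1.95 and 3.37. Both had the course of the members: higher on the array labelled 2i than with empty vector before Dox, and lowest with Nanog after it.

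Tcstv3, at the edge of the interval that holds AF067061, rose by 1.36 over the 4 pairs (adjusted p = 0.0483) and Tcstv1 was at 1.30 (adjusted p = 0.0591), with ratios of 0.40 and 0.02 with Nanog and 2.43 and 1.64 with Esrrb. Sp110, a nuclear body gene, rose by 1.23 (adjusted p = 0.018), with ratios of 1.49, 1.13, 0.77 and 1.52 on the brightest of its 3 probe sets. The lowest of the 3 read 0.18, 0.08, -0.13 and 0.28, so the call holds for the brightest and the probe sets disagree. Ubtfl1, a gene related to the ribosomal RNA gene factor UBTF, had ratios of 2.09, 3.12, 0.18 and 3.19 (adjusted p = 0.0525 over the 4 pairs). Zfp750, known for epidermal differentiation, rose by 1.34 (adjusted p = 0.0456), with ratios of 1.98 and 2.05 in the empty vector and 2i pairs and 0.69 and 0.64 with Nanog and Esrrb. Ddit4l, an inhibitor of mTOR signalling, rose by 1.88 (adjusted p = 0.0303) and differed between the kinds of background (interaction -1.57, adjusted p = 0.0492, lost with 1 probe set a gene at 0.0521). Pramel13 and Gm4850 rose by 0.79 and 0.58 (adjusted p = 0.0465 and 0.0365).

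Calcoco2 and Pramel7 had ratios of 3.94 and 2.60 with 2i, and below 1 in the other pairs. The other Pramel7 probe set read 0.57 with 2i. Dusp6 and Spry4 were low only on the treated array of that pair, so 2i and Dox cannot be told apart there. The Duxf3 probe set, for the gene of Dux, read between 3.24 and 3.68 on all 8 arrays, below the median of all values, and its response of 0.17 over the 4 pairs was not called (adjusted p = 0.430). A probe set annotated to Duxf3 and 2 other genes read 4.53, 4.60, 4.58 and 4.80 without Dox and 4.60, 4.89, 4.46 and 5.92 with Dox. Its log2 ratio was 1.12 with Esrrb and between -0.12 and 0.29 in the other pairs, and it was not called over the 4 pairs (adjusted p = 0.371). Untreated, 3 of the 25 were over 2-fold higher on the array labelled 2i than in empty vector cells, where 0.517% of all genes were, and 3 of 25 in Esrrb cells, where 1.26% were.

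Probe sets that several genes share were looked at apart, without naming any of their genes. Of 10 that hold a listed gene, 6 were called higher over the 4 pairs, the shared Zscan4 probe set among them, where 2.65% of all probe sets were. Many of these genes lie in multi-copy families, so the 6 may not be independent. Of the 3 with the next largest response, a pair annotated to 3 genes each had log2 ratios of 4.14, 2.73, 2.61 and 4.27, and of 4.27, 2.71, 2.78 and 4.64. One annotated to 7 genes had 4.53, 2.12, 3.13 and 4.50. Their adjusted p over the 4 pairs was 0.01, 0.0118 and 0.0150. In each, the empty vector and Esrrb pairs had the larger ratios and the 2i and Nanog pairs the smaller, as for AF067061 and Gm20767.

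**Figure D4:**
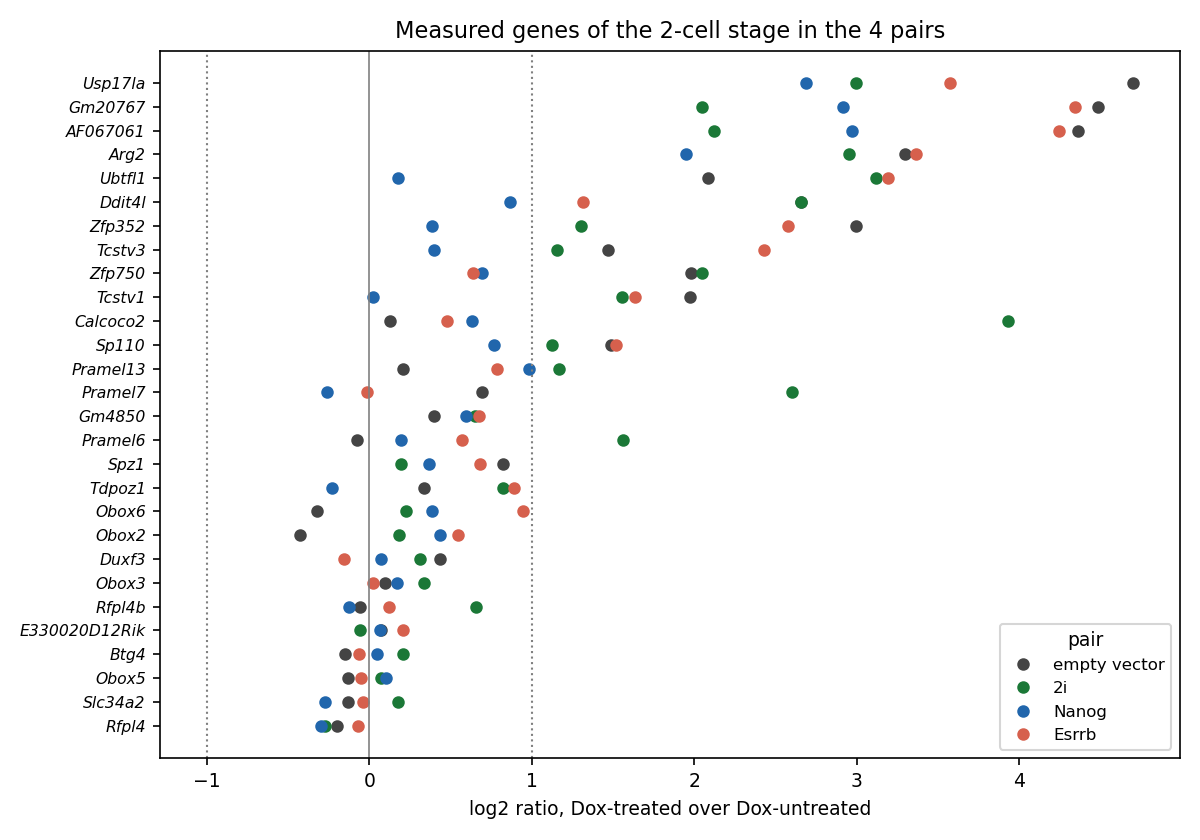
Log2 ratio, treated over untreated (horizontal axis), for the 28 genes of the 2-cell list with a probe set of their own (vertical axis, ordered by mean ratio), 1 point per pair; dotted lines mark 2-fold. Usp17la, Gm20767, AF067061 and Arg2 lie right of 2-fold in all 4 pairs, and the genes at the bottom lie near 0.

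Known regulators of the 2-cell-like state were listed as well, 44 of 50 measured. The list was not split into genes that activate and genes that repress the state. Its counts and median therefore give no direction for the state. After Dox 0, 1, 0 and 0 of them were over 2-fold higher, taking the pairs in the same order as before, and 5, 4, 2 and 0 over 2-fold lower, beside 3.85%, 3.1%, 1.17% and 0.967% of all genes lower and 5.36%, 4.81%, 1.13% and 1.06% higher. Their median log2 ratio was -0.21, -0.22, -0.04 and 0.00. Dppa2 and Dppa4, which activate Dux, had ratios between -0.15 and 0.11 and between -0.79 and 0.00. Over the 4 pairs limma called 1 higher, Nelfa, a transcription elongation factor gene, by 0.51 (adjusted p = 0.0497), and 3 lower, where 3.86% of all genes were called higher and 3.49% lower. Each of these 4 lost the call whichever pair was left out (adjusted p between 0.0569 and 0.151). Lin28a, an RNA-binding protein, fell by 1.13 (adjusted p = 0.038), Pcgf6, a Polycomb component, by 0.49 (adjusted p = 0.0311) and Nr0b1, a nuclear receptor gene, by 1.56 (adjusted p = 0.0392). The 3 Pcgf6 probe sets had log2 ratios between -0.63 and 0.28 with Nanog and between -0.41 and 0.01 with Esrrb. Its call therefore holds for the brightest, and its probe sets disagree there. In the fit of the empty vector and 2i pairs alone, where 2.09% of all genes were called lower, Nr0b1 fell by 2.30 (adjusted p = 0.0124). There Chaf1b and Uhrf1, of chromatin assembly and DNA methylation maintenance, fell by 1.14 and 1.29 (adjusted p = 0.0425 and 0.0192), and their ratios with Nanog and Esrrb were -0.01 and -0.15, and -0.03 and -0.43. The other Chaf1b probe set read 0.07 with empty vector and 0.11 with 2i, so its probe sets disagree. Lin28a had ratios of -0.72, -1.99, -1.10 and -0.72, and was lower in all 4 pairs. Dppa3 and Myc were at 2.04 and -2.07 in the 2i pair, and between -0.37 and 0.26 in the other pairs, and here too 2i and Dox cannot be told apart.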

How the data were processed

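The authors ran RMA (affy, versions not given in the sources used here) on Affymetrix arrays to get log2 values. RMA subtracts background, normalizes by quantiles and summarizes probe sets. The deposited log2 values of 8 arrays were used unchanged, and 0 value columns were left out. A shift of all genes in 1 direction cannot be seen, and precision is limited by how many arrays there are. Groups came from the labels. Of 45101 probe sets, 34958 had 1 symbol in the platform annotation, 932 several and 9211 none, and each of 18194 genes took its probe set with the highest mean. RefSeq matched 34754 probe sets by Entrez ID. The genome build of the arrays was not given, so coordinates are printed for RefSeq promoters only.

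limma 3.58.1 (lmFit and eBayes with a trend, R 4.3.3) was fitted to all probe sets with the background as a block, adjusted by Benjamini-Hochberg at 0.05, and tested on simulated data. Genes past 2-fold have a log2 ratio over 1 or under -1. The members and lists were chosen with earlier results of these data known, and the lists were written from general knowledge. Named genes are Gnl3, the members, per list the 8 genes with the largest ratio in any pair, the 5 genes most like each member and markers needed for the checks. Duxf3, Sp110, Tcstv1, Pramel13, Gm4850, Dppa2, Dppa4, Nelfa, Pcgf6, Sbsn, Krtdap, Ms4a10, Dusp6 and Spry4 fall outside that rule and were named after their values were seen. Alternatives were other probe set rules, thresholds, normalizations, limma settings and leaving out each pair. Python 3.11.15 did the rest.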

Additional observations from a re-analysis of the deposited data

Results flagged for a closer look

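The limma interaction, of Nanog and Esrrb pairs against the others, called 1 of 25 other 2-cell genes and 1 of 44 regulators. Over all genes 0.132% were called with a positive and 0.33% with a negative difference. Ddit4l rose less with Nanog or Esrrb (difference -1.57, standard error 0.191, adjusted p = 0.0492), with log2 ratios of 2.66 in the empty vector and 2i pairs against 0.87 with Nanog and 1.32 with Esrrb. The call was lost with 1 probe set a gene (limma adjusted p = 0.0521), with dim probe sets left out (0.0604) and without the trend (0.0876). Nr0b1 fell less (difference 1.49, standard error 0.182, adjusted p = 0.0495), with log2 ratios of -2.30 in the empty vector and 2i pairs and -1.08 and -0.54 in the others. Its call was lost under the same settings (adjusted p = 0.0521, 0.0615 and 0.104) and with quantile normalization repeated (0.0509).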

How the results depend on the processing

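No called result changed its direction under an alternative. Of those not called, Myc went from -0.42 over the 4 pairs to 0.13 without the 2i pair, and Tbx3 from -0.31 to 0.02 without the empty vector pair. Of the values of single genes and probe sets under the alternatives, 507 kept their side of the threshold or moved by less than the spread, 65 lost the call or, with 1 pair left of a fit, had no test, 16 gained it and 5 moved, these being the 2i ratios of the members against the empty vector Dox-untreated array. In the empty vector and 2i pairs AF067061, Gm20767 and the shared Zscan4 probe set passed with quantile normalization repeated (adjusted p = 0.0408, 0.0473 and 0.0399) and with each array centred on its median (0.0268, 0.0318 and 0.0265). There the _x_at probe set of Zfp352 missed without the trend (0.0677), with dim probe sets left out (0.0543), with robust fitting (0.0515) and without the background block (0.0733).

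In that fit 1626 probe sets were called, and 989 with 1 probe set a gene, 2529 with each array centred, 894 without the background block and 757 without the trend. Over the 4 pairs 2712 were called, 1287 with 1 probe set a gene, and between 3 and 272 with a pair left out. For the interaction 112 were called, 15 with 1 probe set a gene, 0 in limma with dim probe sets left out (4800 at an unadjusted p under 0.05), 1 without the trend and 248 with robust fitting. Of the 25 other 2-cell genes, 3 were called without the background block in the first fit, and over the 4 pairs 5 without the block, 5 without the trend and between 0 (without Esrrb) and 5 (without Nanog) with a pair left out. These counts, and that of 16 genes of 28 over 2-fold higher in the 2i pair against the empty vector Dox-untreated array, were added after seeing the data. No share of all genes stands beside them here.

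Of the 28 genes of the 2-cell list, members included, 15 were over 2-fold higher in the 2i pair (4.81% of all genes) and 9 over 3-fold. At 1.5-fold 10 were higher with Nanog and 16 with Esrrb, among them AF067061 and Gm20767, which were chosen by those pairs. The shares of all genes at 1.5-fold and 3-fold are not given here, for the regulators below as well. These counts therefore show only the effect of the threshold. Of the regulators, at 1.5-fold 3 were higher and 10 lower in the empty vector pair, 9 lower in the 2i pair, and 1 higher and 1 lower in the Esrrb pair. At 3-fold 1 was lower with empty vector and 0 with Nanog. With probe sets of a gene averaged 2 were lower with empty vector and 1 with Nanog, and with any probe set 3 were higher with Nanog. The causes were not tested. The fits pair the arrays of each background through the background block, and the values without that block are given above.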
